A study of Homo sapiens with 12 samples.

Results

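The comparison described here is of cells given siRNAs against both CENPF and FOXM1 with cells given the siRNA against FOXM1 only. It asks what silencing CENPF adds once FOXM1 has been lowered. The libraries were chosen by treatment label: the 3 siCENPF+siFOXM1 libraries and the 3 siFOXM1 libraries, joined by replicate number, make up 6 of the 12 libraries of the series. No control siRNA library enters this comparison. All cells were hTERT-RPE1, a human retinal pigment epithelial line immortalised with telomerase and labelled as parental. The 3 siFOXM1 and the 3 siCENPF+siFOXM1 cultures shared the FOXM1 siRNA, so every value below is a difference between cells that all carry a FOXM1 knockdown. The siRNA was given overnight at 20 nM and polyA RNA was collected at 48 hours. The labels do not say if that dose applied to each siRNA or to their sum in the cells with both, nor whether either siRNA was a pool, so the added target and a change in the amount of the FOXM1 siRNA cannot be told apart. The remaining libraries, 3 with a negative-control siRNA (siNeg) and 3 with siCENPF, compare siCENPF with siNeg in cells without siFOXM1. They share no library with the comparison described here. By label siCENPF stands in place of siNeg there, whereas here it is added to siFOXM1.

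CENPF encodes CENP-F, a large coiled-coil protein that accumulates in G2, sits at the outer kinetochore and nuclear envelope in mitosis, and binds the dynein regulators NDE1, NDEL1 and LIS1 as well as the mitochondrial Miro GTPases. FOXM1 is a forkhead transcription factor that acts with B-Myb and the MuvB complex on genes of G2 and mitosis, and CENPF is itself among its known targets. Cells that lack CENP-F still build kinetochores, and the protein is best known for its attachments to microtubules and dynein.

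The targeted genes were checked first. CENPF (ENSG00000117724, hg38 chr1:214603195-214664588, plus strand) had normalized counts of 7567, 7448 and 7723 in the siFOXM1 libraries numbered 1 to 3 and of 1360, 1360 and 1284 in the libraries with both siRNAs. All 3 libraries with both siRNAs lay far below all 3 with siFOXM1. The mean fell from 7579 ± 138 to 1335 ± 44 (SD, n = 3 each), which left 17.6% of the level, and the log2 fold change was -2.50 (SE 0.05, n = 3 pairs). Its adjusted p in the fit of 6 libraries was too small to be stored as a number, and in a fit of all 12 libraries it was 3.2e-14 (limma with Benjamini-Hochberg adjustment). FOXM1 (ENSG00000111206, hg38 chr12:2857681-2877040, minus strand) had 4186, 4438 and 4763 normalized counts in the siNeg libraries. Those values were 731.6, 491.4 and 816.1 in the siFOXM1 libraries and 729.0, 816.5 and 822.2 after both siRNAs. The 6 libraries with the FOXM1 siRNA all lay below the 3 siNeg libraries and overlapped one another. The FOXM1 difference between them was 0.25 on the log2 scale (SE 0.07) and did not pass the test (limma adjusted p = 0.06). That value came from the libraries numbered 2: without number 1 it was 0.37 (adjusted p = 0.0087) and without number 3 it was 0.36 (adjusted p = 0.0088), and both of these passed. ITFG2, transcribed from the other strand, overlaps FOXM1 exons over 781 bases, and because no source states if reads were counted by strand, a part of the FOXM1 reads cannot be assigned.

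**Figure D1:**
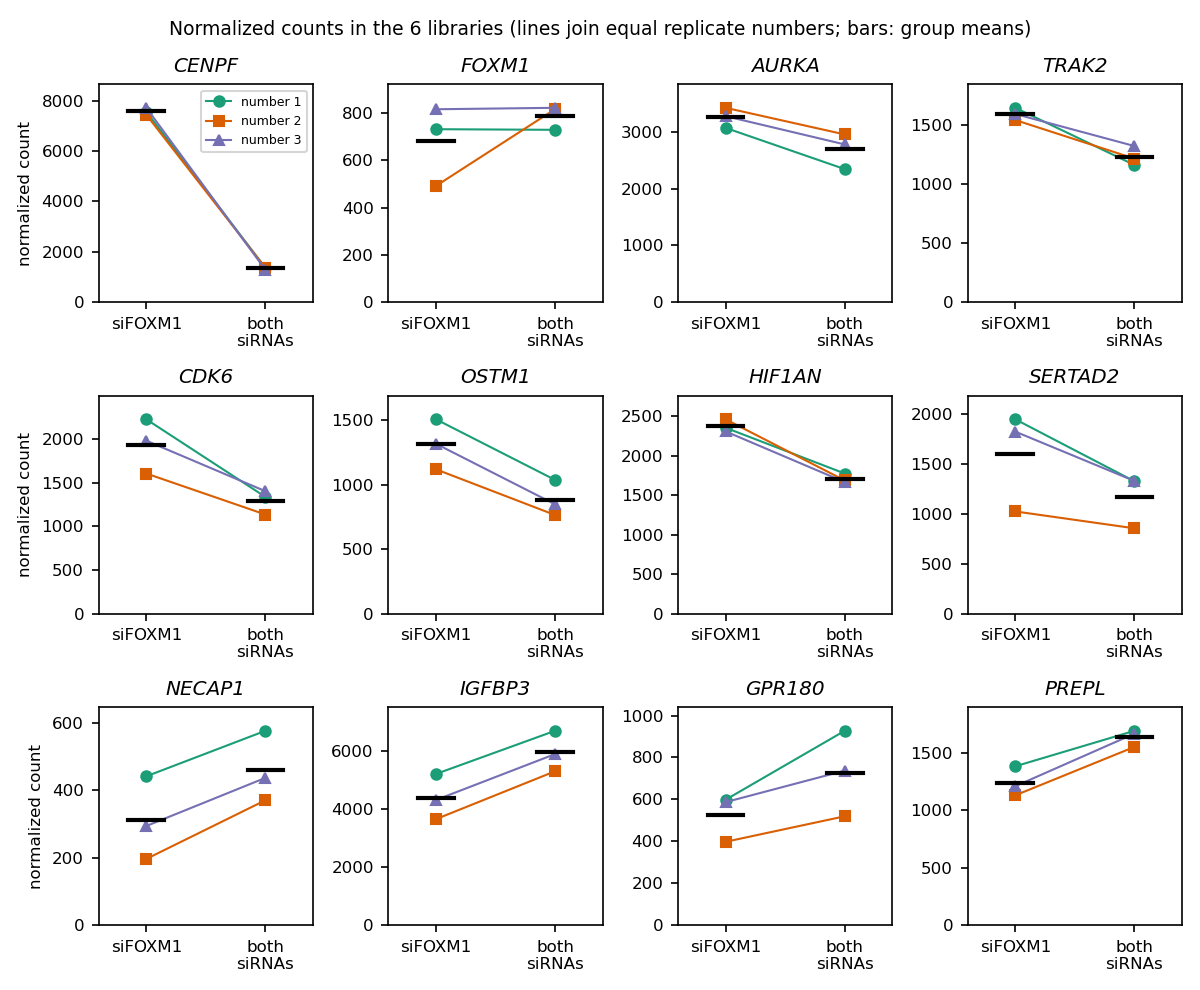
Normalized count (vertical axis, from 0) in each of the 6 libraries for CENPF, FOXM1 and 10 further genes; lines join equal replicate numbers and black bars are group means. CENPF drops from 7579 to 1335 on average in each of the 3 pairs, while FOXM1 overlaps between the groups; the lines of AURKA, TRAK2, CDK6, OSTM1, HIF1AN and SERTAD2 fall in all 3 pairs and those of NECAP1, IGFBP3, GPR180 and PREPL rise in all 3.

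The 6 libraries held 13671250 to 17968360 reads in genes. Mitochondrially encoded genes took 2.37% to 2.88% of the normalized counts of these libraries. Equal replicate numbers deviated together: after subtracting each group's mean, same-numbered libraries correlated at 0.484, 0.571 and 0.269 for numbers 1, 2 and 3, and differently numbered ones at between -0.457 and 0.0106. The replicate number was a block in the fit, as the comparison is paired by number. Nothing in the labels says that replicates were separate cultures, so p-values refer to the spread between these samples, which may be technical. In the fit of 6 libraries that spread was taken from a trend over all genes, not from each gene's own values. Because RNA was taken from whole cultures, fewer cells of a kind and less RNA per cell cannot be told apart. Of 15 retinal pigment epithelium markers, 7 passed the filter on low counts, among them KRT8, KRT18, BEST1 and MITF, while RPE65, TYR and TTR are listed at 0 FPKM in all 6 libraries. RLBP1, TYRP1, DCT and LRAT have no normalized count. BEST1 shares 1267 exonic bases with FTH1 on the other strand, and KRT8 and KRT18 share 525 with each other. A part of their reads therefore cannot be assigned. Keratinocyte markers summed to 1.09 to 2.26 FPKM with siFOXM1 and 1.15 to 1.96 with both siRNAs, with KRT5, KRT6A, CDH1 and EPCAM listed at 0. Blood and endothelial markers summed to 0.081 to 0.166 and 0.027 to 0.135 FPKM, with CD3E, HBB and HBA1 at 0. Neural markers summed to 2.57 to 2.70 and 2.52 to 2.67 FPKM, with OLIG2 and NEFL at 0.

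Adding siCENPF to siFOXM1 changed few transcripts, and most by little. Of 14777 genes tested, 187 (1.27%) passed an adjusted p of 0.05, of which 92 (0.623%) were higher and 95 (0.643%) lower with both siRNAs. The median size of the change was 0.26 on the log2 scale among the higher genes and 0.28 among the lower, and only 10 and 11 of them reached 0.5. Of the 92 higher genes, 42 had libraries that did not overlap between the groups, beside 3.22% of all genes tested that were separated upwards. The same held for 51 of the 95 lower genes, beside 3.57% of all genes separated downwards (6.79% in either direction). The number of calls differed between fits. The fit of 6 libraries pooled the variances of all genes onto 1 trend, edgeR on recovered reads called 186 genes (1.31%) and DESeq2 called 49 (0.345%), a fit in which all 12 libraries shared the spread called 44 (0.296%), and without the replicate block only CENPF (0.00677%) was called. A set of 14 higher and 16 lower genes passed in the 6-library fit, the 12-library fit, edgeR, DESeq2 and each fit without 1 replicate number. This set was formed after the values were seen. The FPKM fit and the fits without the replicate block, which called 1 gene each, did not enter its choice.

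Among rising genes with a mean of at least 100 normalized counts, an official-style symbol and 3 pairs in 1 direction, the largest differences were those of DPP4, NECAP1, SFTA1P and SPP1. DPP4, a cell-surface dipeptidyl peptidase, had 113, 67.1 and 65.8 normalized counts with siFOXM1 and 129, 121 and 122 with both siRNAs. The groups did not overlap, and the log2 difference was 0.63 (SE 0.17, limma adjusted p = 0.025, n = 3 pairs), but it passed in only 1 of the 3 fits without a replicate number. NECAP1, an adaptor of clathrin-coated vesicles, had 441, 196 and 294 against 576, 370 and 437 normalized counts. Its groups overlapped, because libraries of number 1 were high and those of number 2 low in both, yet each pair rose, and the difference was 0.62 (SE 0.10, adjusted p = 1.2e-07). NECAP1 shares 427 exonic bases with a gene without a symbol on its own strand and 303 with another on the opposite strand. A part of its reads therefore cannot be assigned. IGFBP3, a secreted carrier of insulin-like growth factors, had 5193, 3640 and 4299 against 6677, 5286 and 5877. All 3 libraries with both siRNAs lay above all 3 without siCENPF, and the difference of 0.45 (SE 0.04) had an adjusted p of 1.1e-20. GPR180, an integral membrane protein, went from 598, 397 and 587 to 927, 519 and 737 (0.45, SE 0.08, adjusted p = 5.4e-06), rising in each pair with overlapping groups. PREPL, a prolyl endopeptidase-like hydrolase, went from 1380, 1128 and 1207 to 1689, 1549 and 1664 without overlap (0.40, SE 0.06, adjusted p = 2.8e-09).

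SPP1, which encodes osteopontin, stood at 210, 45.4 and 163 with siFOXM1 and 246, 103 and 187 with both siRNAs, so that the pair numbered 2 carried most of its difference of 0.53 (SE 0.15, adjusted p = 0.033), and edgeR did not call it (adjusted p = 0.14). SFTA1P, a long non-coding RNA, differed by 0.58, CHIC1 by 0.49, LYSMD2 by 0.46, CREBRF, a regulator of the CREB3 stress factors, by 0.45 and ZNF697, a zinc finger gene, by 0.45. The circadian gene PER3 differed by 0.41, the deubiquitinase YOD1 by 0.40, SLC3A1, a subunit of the cystine transporter, by 0.39 and the ubiquitin ligase RNF149 by 0.39. Among the 15, NECAP1, IGFBP3, GPR180 and PREPL passed without any 1 replicate number, while LYSMD2, ZNF697, PER3 and RNF149 lost the call whichever number was left out. SLC3A1 and PREPL lie next to each other on chromosome 2 and share 1923 exonic bases on opposite strands, so their values are not separate evidence. PER3 shares 868 exonic bases with UTS2 and 482 with Z98884.1, both on the other strand. The further 10 higher genes of the set that passed in the fits listed above were ATP13A3, CCDC80, CD164, FYTTD1, GJA1, MSRB3, NEK7, SEC23A, SLC39A10 and TXNIP. Their differences ran from 0.22 for GJA1, a gap junction protein, to 0.36 for FYTTD1, an mRNA export adaptor.

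**Figure D2:**
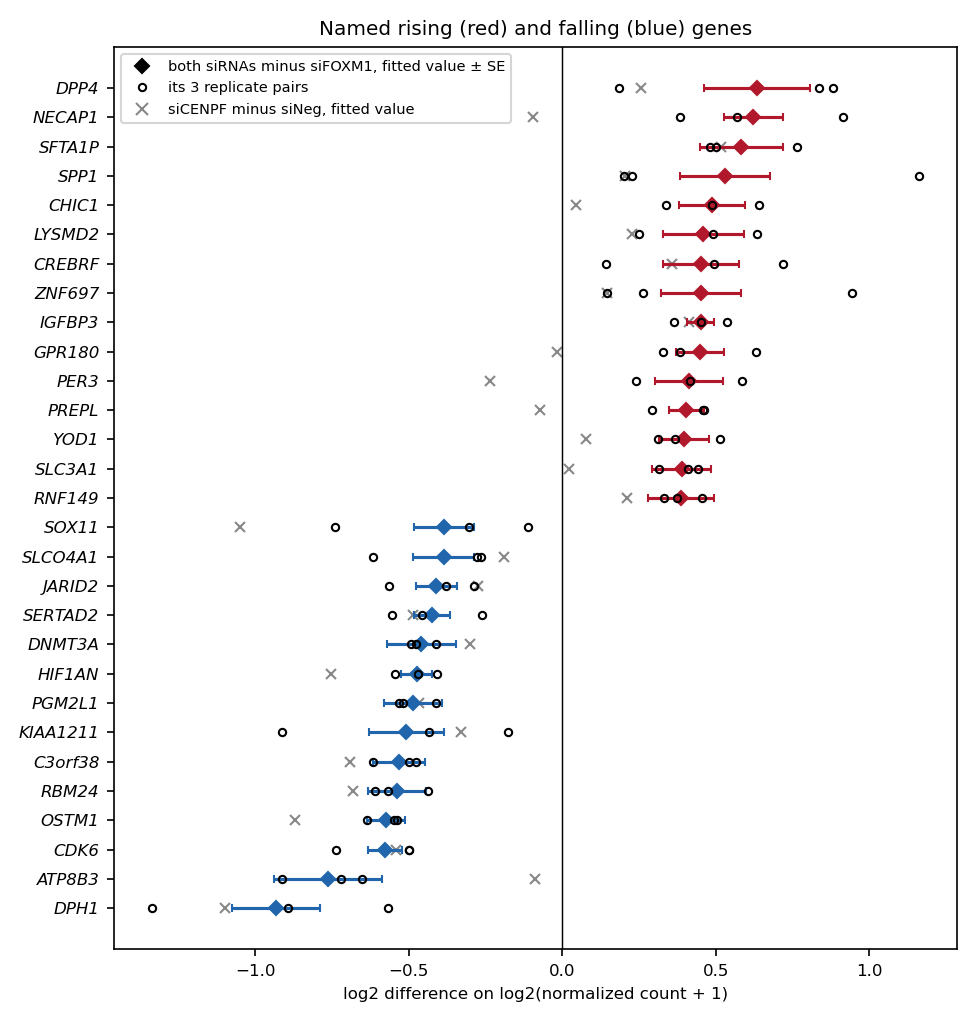
Log2 difference on log2(normalized count + 1) (horizontal axis) for the named rising and falling genes; diamonds are the fitted values of both siRNAs minus siFOXM1 with their SE, open circles the 3 replicate pairs and crosses the fitted value of siCENPF minus siNeg. All circles lie on the side of their diamond; for OSTM1, HIF1AN and SOX11 the cross lies further from 0 than the diamond, and for NECAP1, GPR180, PER3 and PREPL it lies at or below 0.

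Among the named falling genes, DPH1, the first enzyme of diphthamide synthesis, had 231, 175 and 214 normalized counts with siFOXM1 and 91.1, 118 and 115 with both siRNAs. No library overlapped, and the log2 difference was -0.93 (SE 0.14, limma adjusted p = 6.9e-08, n = 3 pairs). It shares 1122 exonic bases with OVCA2 on its own strand and 422 with the non-coding RP11-667K14.4 on the other, which differed by -0.75, so the reads of this locus cannot be split with certainty. CDK6, a cyclin D-dependent kinase of G1, had 2227, 1605 and 1982 against 1337, 1135 and 1402 normalized counts. Each library with both siRNAs lay below each siFOXM1 library, which left 66.6% of the level (-0.58, SE 0.06, adjusted p = 1.5e-21). OSTM1, a lysosomal partner of the chloride transporter ClC-7, went from 1506, 1118 and 1316 to 1036, 764 and 847 (-0.57, SE 0.06, adjusted p = 1.9e-16), again without overlap. HIF1AN, the asparagine hydroxylase that inhibits HIF, had 2355, 2463 and 2309 against 1775, 1687 and 1667, with no overlap between the groups, and kept 72.0% of its level (-0.47, SE 0.05, adjusted p = 1.8e-16).

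RBM24, an RNA-binding splicing factor, kept 68.4% of its siFOXM1 level and C3orf38 kept 69.1%. On the other strand, C3orf38 shares 143 exonic bases with CGGBP1, and HIF1AN shares 325 with NDUFB8. Further named genes also share exonic bases with neighbours. SERTAD2, a transcriptional co-regulator of E2F activity, went from 1948, 1024 and 1824 to 1326, 855 and 1330 normalized counts. Libraries numbered 2 were low in both groups, so the groups overlapped although each pair fell (-0.42, SE 0.06, adjusted p = 7.7e-10). ATP8B3, a phospholipid flippase subunit, differed by -0.76 at only 74.0 to 128 normalized counts in the group means. The DNA methyltransferase DNMT3A differed by -0.46, JARID2, a partner of Polycomb complex PRC2, by -0.41 and PGM2L1, which makes glucose-1,6-bisphosphate, by -0.49. KIAA1211, now named CRACD, differed by -0.51, the organic anion transporter SLCO4A1 by -0.39 and the transcription factor SOX11 by -0.39. ATP8B3, KIAA1211, DNMT3A, SLCO4A1 and SOX11 lost the call in at least 1 of the 3 fits without a replicate number, with adjusted p up to 0.72. The lower genes of the set that passed in the fits listed above, beyond those already named, included ATL3, an endoplasmic reticulum atlastin (-0.33), ERRFI1, an inhibitor of the EGF receptor (-0.32), PTBP3, a splicing regulator (-0.29), TMEM158 (-0.33) and ZC3H18, an RNA-processing protein (-0.33).

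Genes lower with both siRNAs shared a short word in their annotated 3′ UTRs with the genes lower after siCENPF in control cells. All 7-letter words on the transcript strand of the 3′ UTRs of 11752 genes were ranked by their excess among the called genes, using only the siCENPF and siNeg libraries, which do not enter the comparison described here. AGCGCTA came first of 16357 words among the genes lower with siCENPF, where 15 of 93 genes held it (16.1%), beside 247 of all 11752 (2.10%). It also came first among the genes lower with both siRNAs against siFOXM1, where 15 of 88 held it (17.05%), and 0 of the 86 higher genes did. Of the 35 searched genes that were lower in both comparisons, 10 held it (28.6%). These 35 are among the 93 genes in which the word was chosen. The second ranking is therefore not independent of the first, although the libraries are separate. The called lower genes had longer 3′ UTRs, with a median of 2536 bases beside 1673 over all genes. Per length the word was also more frequent, with 4.70 sites per 100 kb of the longest 3′ UTRs of the lower genes and 0.672 over all genes. All 247 holders, called or not, had a median log2 difference of -0.04 and 161 of them (65.2%) lay below 0, beside a median of 0.00 and 49.2% among the 11505 genes without the word. These 247 include the 15 holders among the genes that selected the word. The sites in 5 genes that fell in both comparisons are shown because they carry this shared word. OSTM1, C3orf38, HIF1AN and SERTAD2 are named falling genes, and ZC3H18 was added after its values were seen. Sequences are from GENCODE v29 transcripts (GRCh38), 5′ to 3′ on the transcript strand, with the word in capitals.
OSTM1 3′ UTR, chr6:108042954-108042982, minus strand: gataagtattaAGCGCTAccctaaagtgt
C3orf38 3′ UTR, chr3:88156683-88156711, plus strand: tgaccctctaaAGCGCTAagtactgtcag
HIF1AN 3′ UTR, chr10:100548206-100548234, plus strand: aggagactccaAGCGCTAgtattgcacgc
SERTAD2 3′ UTR, chr2:64632810-64632838, minus strand: ttttactgtggAGCGCTAacatctggatc
ZC3H18 3′ UTR, chr16:88631511-88631539, plus strand: cagacacagacAGCGCTAgtgaccagcac
The flanks of these windows differ from gene to gene while the 7 letters are the same by construction of the search. Of 2370 mature human miRNAs in the RefSeq table, 0 have the complement of this word as seed (bases 2 to 8). No source used here gives the sequence of the CENPF siRNA, so a match between it and these sites was not tested. CENPF itself does not hold the word in its 3′ UTRs, nor do CDK6, DPH1, AURKA or TRAK2, and 73 of the 88 lower genes lack it.

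**Figure D3:**
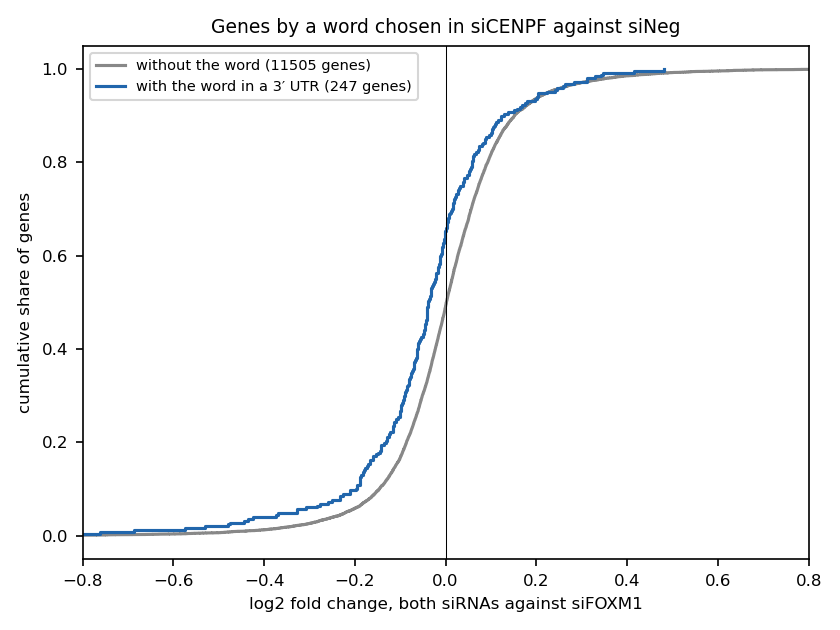
Cumulative share of genes (vertical axis) by log2 fold change of both siRNAs against siFOXM1 (horizontal axis), for the 247 genes with the word in a 3′ UTR and the 11505 without it; the horizontal axis is cut at 0.8 on either side. The curve of the holders lies to the left of the other up to about the higher tail, with 65.2% of holders and 49.2% of the other genes below 0.

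In the list of CENPF partners and related dynein, Miro and farnesyltransferase genes, 1 of 18 passed, beside 0.643% of all genes tested that passed lower. This was TRAK2, a kinesin and dynein adaptor of mitochondria that binds Miro. It had 1643, 1540 and 1591 normalized counts with siFOXM1 and 1160, 1214 and 1320 with both siRNAs. The groups did not overlap, and TRAK2 kept 77.4% of its level (-0.37, SE 0.06, limma adjusted p = 8.6e-08), though it shares 144 exonic bases with STRADB on the other strand. The LIS1 gene PAFAH1B1 differed by -0.10 (adjusted p = 0.33) and NDE1 by 0.12 (adjusted p = 0.71). None of the 8 genes of CENP-A and its loading, the 16 inner kinetochore, 13 outer kinetochore, 9 spindle checkpoint, 6 passenger complex and shugoshin or 21 cohesin and condensin genes passed. At an unadjusted p under 0.05 these lists held 1, 0, 3, 1, 3 and 5 genes, beside 11.3% of all genes tested. The list share lay above this in all but the inner kinetochore and spindle checkpoint lists. EdgeR and DESeq2 called 0 in each of them. Their medians were -0.07, -0.06, -0.01, -0.06, -0.07 and -0.03, beside 0.00 over all genes tested. Among the 9 corona and motor genes 0 passed, with 1 at an unadjusted p under 0.05: CLASP1, a microtubule plus-end protein, differed by -0.19 (adjusted p = 0.052) and was called by edgeR (adjusted p = 0.047). SKA1, of the outer kinetochore microtubule coupler, differed by -0.25 (adjusted p = 0.083).

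Cell cycle genes leaned lower by a small amount. Over all genes tested, 0.643% passed lower. Of 24 FOXM1 target genes 1 passed, and the same gene was the only 1 of 52 G2/M genes to pass. AURKA, the mitotic kinase Aurora A, had 3072, 3427 and 3279 normalized counts with siFOXM1 and 2345, 2957 and 2781 with both siRNAs. The highest library with both siRNAs lay below the lowest siFOXM1 library, and AURKA kept 82.7% of its level (-0.28, SE 0.05, limma adjusted p = 2.5e-06). In the G2/M list 40 of 52 genes lay below 0 with a median of -0.07, and 17 of these were lower at an unadjusted p under 0.05, beside 5.6% of all genes tested (11.3% in either direction). KIF22, a chromosome-arm kinesin, differed by -0.17 (adjusted p = 0.067) and PKMYT1, the CDK1 inhibitory kinase, by -0.17 (adjusted p = 0.1). Among FOXM1 targets CDKN3, a CDK phosphatase, differed by 0.24 (adjusted p = 0.15) and CDC25C, a CDK1-activating phosphatase, by -0.22 (adjusted p = 0.31). Of 53 S-phase genes 47 lay below 0, with a median of -0.09 in the fit and of -0.09, -0.10 and -0.08 in the pairs numbered 1 to 3. FEN1, the flap endonuclease of lagging strands, was the 1 that passed (-0.18, SE 0.05, adjusted p = 0.038), and it lost the call in 2 of the 3 fits without a replicate number, with all 12 libraries (adjusted p = 0.34) and by DESeq2 (0.64). None of the 12 MuvB, B-Myb and DREAM genes passed, with 2 at an unadjusted p under 0.05. MYBL2, which encodes B-Myb, differed by -0.16 (adjusted p = 0.15).

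**Figure D4:**
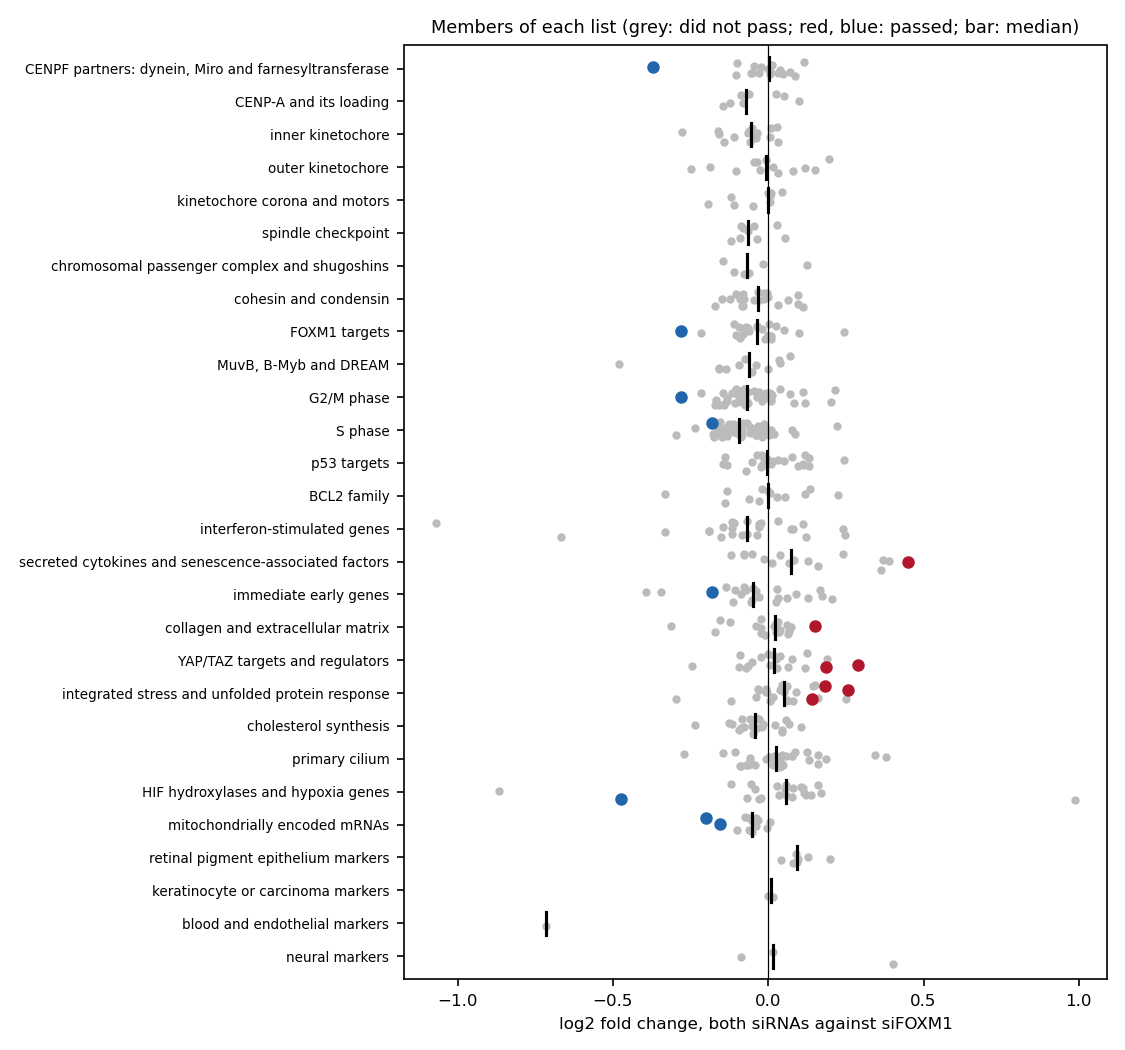
Log2 fold change of both siRNAs against siFOXM1 (horizontal axis) for each tested member of the 28 lists (rows); grey points did not pass, red points passed higher and blue points passed lower, black bars are medians, and CENPF is left out. Most points lie within 0.3 of 0, with at most 3 coloured points in a row, and the S-phase and G2/M rows sit to the left of 0.

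Among the other lists, the integrated stress and unfolded protein response held the largest number of calls, with 3 of 27 higher and 0 lower. For each list count in this paragraph, the shares over all genes tested were 0.623% higher and 0.643% lower. SLC7A5 and SLC3A2, the light and heavy chain of a large neutral amino acid transporter, differed by 0.26 and 0.18, and HSP90B1, the chaperone GRP94, by 0.14 (limma adjusted p = 8.0e-06, 0.025 and 0.022). The level of SLC7A5 ranged from 1944 to 5645 normalized counts among siFOXM1 libraries and from 2657 to 5868 with both siRNAs, with the libraries numbered 2 lowest in each group. None of the 3 was called when all 12 libraries shared the spread (adjusted p from 0.34 to 0.52) or by DESeq2 (0.053 to 0.92). Of 20 YAP and TAZ genes 2 were higher: ANKRD1, a muscle ankyrin repeat protein used as a YAP readout (0.29, adjusted p = 3.1e-09), and PTPN14, a phosphatase that retains YAP in the cytoplasm (0.19, adjusted p = 0.0064). Neither was called with all 12 libraries (adjusted p = 0.32 and 0.36) or by DESeq2 (0.14 and 0.07). The collagen crosslinking enzyme LOX was 1 of 20 matrix genes that passed (0.15, adjusted p = 0.024), and IGFBP3 was 1 of 16 secreted factors. The cytokine IL1B differed by 0.16 (adjusted p = 0.18). FOSL2, a partner of JUN, was 1 of 23 immediate early genes that passed (-0.18, adjusted p = 0.0098). Like the YAP genes, LOX and FOSL2 were not called with all 12 libraries (adjusted p = 0.34 for each) or by DESeq2 (0.27 and 0.33). HIF1AN was the 1 of 23 hypoxia genes that passed. P4HA1, a collagen prolyl hydroxylase, differed by 0.16 (adjusted p = 0.15).

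Of 13 mitochondrially encoded protein-coding genes 12 lay below 0. MT-ATP8 (-0.20, limma adjusted p = 0.0039) and MT-ND4L (-0.15, adjusted p = 0.038) passed, beside 0.643% of all genes tested that passed lower. Neither was called with all 12 libraries (adjusted p = 0.31 and 0.77) or by DESeq2 (1.0 and 0.25). MT-ATP8 had 3638, 3601 and 3278 normalized counts with siFOXM1 and 3665, 3147 and 2454 with both siRNAs, so the groups overlapped and the pair numbered 1 did not move. MT-ATP8 shares 46 exonic bases with MT-ATP6 on the same strand, and MT-ND4L shares 7 with MT-ND4. MT-ATP6 (-0.05, limma adjusted p = 0.64) and MT-ND4 (-0.04, adjusted p = 0.76) did not pass. None of 25 p53 targets, 13 BCL2 family, 25 interferon-stimulated, 23 cholesterol synthesis or 34 primary cilium genes passed, nor were any called by edgeR or DESeq2. At an unadjusted p under 0.05 these lists held 5, 3, 3, 4 and 3 genes, beside 11.3% of all genes tested, a share exceeded by the list share of each but the primary cilium genes. Among the interferon-stimulated genes, BST2 differed by -0.67 (adjusted p = 0.29) and MX2 by -1.07 (adjusted p = 0.32), and the list median was 0.09, 0.14 and -0.32 in the pairs numbered 1 to 3. All 7 retinal pigment epithelium markers tested lay above 0 with a median of 0.09, and 0 passed. The summed level of the 15 listed markers was 87.5 to 89.7 FPKM with siFOXM1 and 92.1 to 95.4 FPKM with both siRNAs, and its part in the other results was not tested. KRT8 and KRT18 share exonic bases with each other and BEST1 with FTH1, so the 7 values are not all separate evidence.

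The same siRNA set against siNeg gave the closest parallel among the genes that fell. With siCENPF against siNeg, 295 of 14729 genes passed (2.0%), of which 198 were higher (1.34%) and 97 lower (0.659%). Of the 95 genes lower with both siRNAs, 36 were also lower in that comparison, which is 37.9% of the first list and 37.1% of the second. Of the 92 higher genes 14 were also higher there, which is 15.2% of the first list and 7.07% of the second. With siCENPF alone, 75 of the 92 higher genes lay above 0, with a median of 0.14 there and 0.26 on top of siFOXM1. Of the 95 lower genes 83 lay below 0 with siCENPF alone, with a median of -0.25 there and -0.28 on top of siFOXM1. The shared lower genes included CENPF, CDK6, OSTM1, HIF1AN, SERTAD2, DPH1, RBM24, C3orf38, AURKA and TRAK2, and the shared higher genes IGFBP3, TXNIP, NEK7, SLC7A5 and SLC3A2. CDK6 differed by -0.54 with siCENPF alone and AURKA by -0.35, values close to -0.58 and -0.28 on top of siFOXM1. The 97 genes lower with siCENPF alone had a median of -0.41 there and of -0.16 on top of siFOXM1, and 93 of them stayed below 0. The 198 higher genes had a median of 0.44 there and of 0.05 on top of siFOXM1. Each of these lists was chosen by its change in 1 comparison, which favours a smaller value in the other. Across 14687 genes, which are not independent replicates, Pearson's r between the changes was 0.138 and Spearman's rho 0.192.

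**Figure D5:**
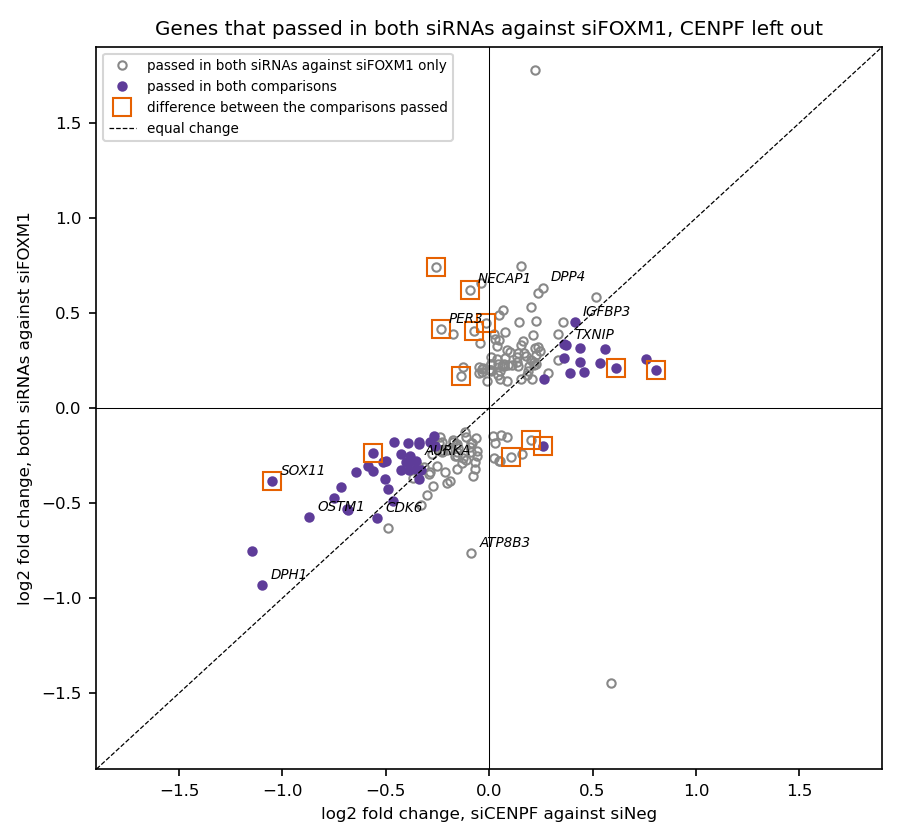
Log2 fold change of both siRNAs against siFOXM1 (vertical axis) and of siCENPF against siNeg (horizontal axis) for the 186 genes other than CENPF that passed in the first; filled points passed in both comparisons, orange squares passed the test of the difference and the dashed line marks equal change. Filled points crowd the lower left, with DPH1, OSTM1, CDK6 and SOX11, and few lie at the upper right, with IGFBP3 and TXNIP.

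The difference between the effects of siCENPF with and without siFOXM1 was tested as an interaction over all 12 libraries. By label the siNeg siRNA has no counterpart in the cells with siFOXM1, so an effect of siNeg itself enters the interaction. Such an effect and a siCENPF effect that differs with siFOXM1 cannot be told apart. Of 14857 genes 125 passed (0.841%), with 16 higher (0.108%) and 109 lower (0.734%) on top of siFOXM1, and without the replicate block limma called 0, with 353 at an unadjusted p under 0.05. CENPF was lowered less on top of siFOXM1: the log2 change was -2.50 there and -3.21 in control cells, an interaction of 0.70 (SE 0.10, limma adjusted p = 0.0011). The siCENPF libraries held 893, 827 and 1017 normalized counts of CENPF, below the 1284 to 1360 left with both siRNAs. All 109 lower genes lay above 0 with siCENPF in control cells, where 98 of them passed. Their median was 0.47 there and -0.01 on top of siFOXM1. The interaction subtracts the change in control cells from the change on top of siFOXM1. Choosing genes with a low interaction therefore favours values above 0 in control cells.

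DDAH1, which degrades methylarginines, shows the form of this difference. Its siNeg libraries held 3898, 2786 and 3524 normalized counts, its siCENPF libraries 7539, 6855 and 7263, its siFOXM1 libraries 7590, 6344 and 6668 and those with both siRNAs 7428, 6518 and 7387. The 3 siNeg libraries lay below all others, and the other 3 groups overlapped (interaction -1.05, SE 0.08, limma adjusted p = 9.5e-09). LMLN, a leishmanolysin-like peptidase, stood at 77.3 ± 6.75 normalized counts (SD, n = 3) with siNeg, 206 ± 26.8 with siCENPF, 233 ± 44.6 with siFOXM1 and 226 ± 18.4 with both siRNAs (interaction -1.43, adjusted p = 0.00022). IL1B had group means of 627, 1473, 1291 and 1444 in the same order (-1.02, adjusted p = 1.4e-05). The histone gene HIST1H2BK, now H2BC12, had means of 180, 385, 417 and 416 (-1.11, adjusted p = 0.0012). KIAA1467, now FAM234B, had means of 76.7, 143, 145 and 120.1 (-1.16, adjusted p = 0.0043). In DDAH1, LMLN, HIST1H2BK and KIAA1467 every siNeg library lay below every library with a targeting siRNA, whereas for IL1B the libraries overlapped, with number 3 lowest in all groups. The word GCAACCA came first among genes higher with siCENPF against siNeg, in 73 of 185 (39.5%), and was in 1254 of all genes searched (10.7%). It was held by 56 of the 100 searched genes with a lower interaction (56.0%), most of which were also among the genes in which it was chosen. On top of siFOXM1 it was held by 11 of 86 higher genes (12.8%) and 13 of 88 lower genes (14.8%), near its share over all genes. Over all 1254 holders the median difference from siNeg was 0.03 with siCENPF, 0.05 with siFOXM1 and 0.04 with both siRNAs. These differences share the siNeg libraries. Between both siRNAs and siFOXM1 the median was -0.01.

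The 16 genes with a higher interaction all lay below 0 with siCENPF in control cells, with a median of -0.37 there and 0.15 on top of siFOXM1. Choosing genes with a high interaction favours values below 0 in control cells by the same subtraction. NECAP1 had group means of 714 with siNeg, 668 with siCENPF, 310.3 with siFOXM1 and 461 with both siRNAs, so siCENPF went with a higher level only where siFOXM1 had been given (interaction 0.72, SE 0.13, limma adjusted p = 0.0051). SMIM13 had means of 636, 425, 309 and 338 (0.72, adjusted p = 0.01) and TMEM71 of 325, 272, 55.5 and 96.9 (1.00, adjusted p = 0.019). SOX11 had 565, 273, 414 and 319, lower with siCENPF in either background but less so on top of siFOXM1 (0.66, adjusted p = 0.019). FAM217B had 447, 220 and 331 with siNeg, siCENPF and siFOXM1 and 268 with both siRNAs (0.72, adjusted p = 0.045).

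Among genes higher with both siRNAs the word that ranked first was GTGTTTA, which was chosen within this comparison and is given as a description. It was held by 43 of 86, beside 21 of 88 lower genes (23.9%) and 2474 of all 11752 genes (21.1%). It was not particular to these genes: 36 of 93 genes lower with siCENPF against siNeg held it (38.7%), as did 13 of the 16 genes with a higher interaction (81.2%) and 15 of the 35 searched genes lower in both comparisons (42.9%). Among its holders were the rising genes NECAP1, GPR180, PREPL, PER3, CHIC1, LYSMD2, YOD1 and RNF149. CENPF, FOXM1, TRAK2 and the falling genes CDK6, HIF1AN, SERTAD2, PGM2L1, DNMT3A and SLCO4A1 also held it. The rising genes DPP4, SPP1, IGFBP3, CREBRF, ZNF697 and SLC3A1 did not. The longest 3′ UTRs of the holders were long, with a median of 3154 bases over all holders and 1397 over the other genes. Per length the word had 26.4 sites per 100 kb in the higher genes and 10.1 over all genes. The 43 higher holders had a median difference of 0.26 between both siRNAs and siFOXM1, of -0.38 between siFOXM1 and siNeg, of -0.13 between both siRNAs and siNeg and of 0.06 between siCENPF and siNeg. The first 2 of these share the siFOXM1 libraries, so their opposite signs are not independent of each other. In the plot of normalized counts by library, NECAP1, GPR180 and PREPL show such a rise from the siFOXM1 level. Over all 2474 holders the medians of the same differences were 0.01, -0.04, -0.03 and -0.01.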

How the data were processed

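PolyA RNA of 12 libraries was sequenced, of which 6 enter the main comparison. Reads were handled with TopHat, Trimmomatic, bcl2fastq and edgeR on hg38, per the submitters' processing notes, which list no versions. The authors deposited normalized counts for 14862 genes, a signal whose scaling no source used here describes, FPKM for 60279 genes, and edgeR tables with CPM. Values of CPM in the knockdown libraries gave whole reads for 100% of values within 0.01 reads; 9 columns of siNeg CPM were not used.

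The main test was limma 3.58.1 (R 4.3.3, trend and robust moderation) on log2(normalized count + 1), two-sided, with the replicate number as a block, Benjamini-Hochberg adjustment over all genes and a threshold of 0.05. The filter kept genes that reached 10 normalized counts in 3 or more libraries of a fit. The block was chosen because the comparison is defined as paired, and was kept because every equal-number correlation exceeded 0.1. The median total degrees of freedom after moderation (prior plus residual) were 29554, so each gene's spread was taken from the trend. Alternatives were edgeR 4.0.16 and DESeq2 1.42.0 on recovered reads, other scalings, filters and pseudocounts, FPKM with a pseudocount of 0.1, and fits without 1 replicate number. Scripts were tested on simulated data.

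Named genes were CENPF, FOXM1, the 15 largest changes per direction (mean of at least 100 normalized counts, 3 pairs in 1 direction, official-style symbol), up to 4 members per list by adjusted p, and 5 per direction for the interaction; 1 falling gene and 2 markers at 0 FPKM are not reported here. The members and the 28 lists were chosen with earlier results of these data known. Symbols came from the authors' tables (14202 genes) or GENCODE v29 (618), and 42 genes had none. Words of 7 letters held by at least 50 genes were ranked by (observed − expected)/√expected.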

Additional observations from a re-analysis of the deposited data

Results flagged for a closer look

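For 17 of the named genes the difference of both siRNAs from siFOXM1 was unlike the difference of siCENPF from siNeg. The test was the limma interaction over all 12 libraries (replicate block, Benjamini-Hochberg adjusted p under 0.05). The log2 difference, with minus without siFOXM1, was below 0 for LMLN (-1.434), KIAA1467 (-1.159), HIST1H2BK (-1.107), DDAH1 (-1.046), IL1B (-1.019), the sterol demethylation enzyme MSMO1 (-0.5025) and MT-ATP8 (-0.4625). It was above 0 for GPR180 (0.4653), PREPL (0.4761), the p53-inducible TP53INP1 (0.6068), PER3 (0.648), SOX11 (0.6632), CENPF (0.7029), NECAP1 (0.7164), FAM217B (0.7195), SMIM13 (0.724) and TMEM71 (0.9991). The first 5 and SOX11, NECAP1, FAM217B, SMIM13 and TMEM71 were named because their interaction was large. MSMO1 had group means of 2185 normalized counts with siNeg, 2959 with siCENPF, 3757 with siFOXM1 and 3475 with both siRNAs. TP53INP1 had 494, 369, 386 and 460 in the same order, with the libraries numbered 2 highest in every group. MT-ATP8 passed in opposite directions in the 2 backgrounds, at 0.26 with siCENPF in control cells and -0.20 on top of siFOXM1. Groups of 3 were too small for a test of single outlying libraries.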

How the results depend on the processing

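The number of genes called with both siRNAs against siFOXM1 was 187. In the check of the paired analysis, limma without the replicate block called 1 gene, and so did the FPKM table with the block, and edgeR without the block, an alternative added after seeing the data, also called 1. Sharing the spread over all 12 libraries gave 44 and DESeq2 49, while edgeR with the block, a pseudocount of 10, no filter and median-of-ratios scaling gave 183 to 188. Leaving out 1 replicate number gave 55 to 179. For siCENPF against siNeg, 295 genes became 6 without the block, 671 with all 12 libraries, 1 with FPKM and 175 to 1056 without 1 number. For the interaction, 125 became 0 without the block, 17 with FPKM and 30 to 107 without 1 number. The cause of these shifts was not tested. No gene called in the main comparison was called in the opposite direction by an alternative. The count models planned for siCENPF against siNeg and for the interaction were not run. Among named genes and the set described in the results, 285 of the 1866 values under an alternative lost the call and 7 gained it. Many of these values had not passed in the main fit and had no call to lose. The losses were 59 each in limma without the block, the FPKM fit and edgeR without the block. They were 29 with DESeq2, 24 with all 12 libraries and 2 in edgeR with the block. Some values that did not pass changed sign without 1 number: over the 3 fits LMLN ran from -0.17 to 0.18, HIST1H2BK from -0.056 to 0.052, ZW10 from -0.26 to 0.013, TUBB3 from -0.17 to 0.015, MAP2 from -0.031 to 0.070, CLDN4 from -0.36 to 0.28 and KRT14 from -0.14 to 0.22. CLDN4 and KRT14, 0.01 and 0.00 in the main fit, were -0.0025 and -0.0039 with a pseudocount of 10, -0.0049 and -0.0012 with FPKM, -0.049 and -0.021 with edgeR, -0.00026 and -0.0066 with DESeq2 and -0.081 and -0.056 with edgeR without the block. With 3 pairs and 13671250 or more reads a library, the smallest called change was 0.12 on the log2 scale.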
